A study of Mus musculus with 23 samples.

Results

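The comparison set conventional dendritic cells of type 1 (cDC1) from the spleens of wild-type (WT) mice against conventional dendritic cells of type 2 (cDC2) from the same kind of mice. It used the 6 arrays titled WT cDC1 or WT cDC2, 3 of each, out of 23 in the series. The other arrays held plasmacytoid dendritic cells (pDC) from WT mice and, from conditional Bcl6 knockout mice (cKO, used here for the arrays so titled), cDC1, cDC2 and pDC. Of these, 4 cKO cDC1 and 5 cKO cDC2 arrays gave the same comparison in a second genotype, and 3 WT pDC arrays gave a level outside both lineages. Neither WT group carried a named allele or treatment in the labels. The sources used here do not give strain, sex, age, the gates of the sort or the Cre driver of the cKO mice. The spleens were dissociated with DNase I and collagenase B and depleted of red cells by lysis, and each sorted population was measured on 1 Mouse Gene 1.0 ST array. No label ties the 3 arrays of a group to different mice. A p-value of the main fit therefore weighs a difference against the scatter within groups, pooled over all 23 arrays. Part of that scatter may be technical.

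Dendritic cells take up antigen and present it to T cells. The cDC1 lineage, which depends on the transcription factors IRF8 and BATF3, is known for taking up dying cells and presenting their antigens on MHC class I to CD8 T cells. The cDC2 lineage, which depends in part on IRF4, ZEB2 and Notch2 signalling, mainly presents on MHC class II to CD4 T cells.

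The lineage labels were set beside defining genes, in lists chosen with earlier results of these data known. All listed cDC1 genes that passed the test were higher in WT cDC1, and the listed cDC2 genes that passed were lower there with 1 exception, as described below. Array medians of intensity were 30.3, 31.6 and 39.3 in WT cDC1 and 30.1, 31.7 and 38.9 in WT cDC2 (arrays 1, 2 and 3), so arrays with the same number had nearly the same median. Their deviations from the group means also moved together (r = 0.647, 0.484 and 0.636 for numbers 1, 2 and 3), and the numbers were therefore taken as pairs. In cKO arrays numbers 1 and 4 moved together (r = 0.596 and 0.52), but 2 and 3 did not (−0.111 and −0.297). There cDC1 array 2 moved with cDC2 array 3 (0.492), an array of like median (31.8 and 32.4). Shared mice and shared processing cannot be told apart as the source of the pairing. The first principal component of the 6 WT arrays (45.7% of the variance) parted cDC1 from cDC2. The second (26.6%) parted the arrays numbered 3 from the others. Array 1 of both groups had high Xist, the transcript of the inactive X chromosome (log2 10.89 in WT cDC1 and 11.28 in WT cDC2), and the other 4 arrays lay between 4.06 and 4.59. The Y-linked genes Uty and Eif2s3y went the other way, at 3.09 to 3.52 on the arrays numbered 1 and 6.49 to 6.95 on the other 4. Each group thus held arrays that differed in sex-linked transcripts. WT cDC1 array 1 and WT cDC2 array 3 had high neutrophil transcripts.

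Of 12157 genes tested, 367 were higher and 369 lower in WT cDC1 than in WT cDC2 at a limma adjusted p below 0.05, which is 6.05% of the genes, 3.02% higher and 3.04% lower. The median difference over all genes was 0.04 (log2, WT cDC1 minus WT cDC2). Of the higher genes, 318 differed more than 2-fold, 107 more than 4-fold and 12 more than 16-fold, and of the lower genes 328, 133 and 14. The groups' 3 arrays did not overlap for 364 of the higher and 367 of the lower genes, while over all genes tested the arrays did not overlap in 17.1%, 8.94% higher and 8.11% lower. With the replicate number as a block, 1062 genes were higher (8.74%) and 915 lower (7.53%), 16.3% in all, and 726 of the 736 calls were kept. This block fit used the 6 WT cDC1 and WT cDC2 arrays alone and left 2 residual degrees of freedom. Its shares are the background for the list counts given below with the block. Without WT cDC1 array 3 the split was 239 higher and 344 lower, and without WT cDC1 array 2 it was 354 higher and 262 lower. Leaving out both arrays numbered 1 gave 217 and 215, and leaving out the 2 arrays with high neutrophil transcripts gave 254 and 218. The lower level lay below the mean array median (log2 5.07 in WT cDC1 and 5.06 in WT cDC2) for 64 of the higher and 113 of the lower genes, and there the size of the fold is uncertain because such a level cannot be told from background. Each array read a pool of cells, so fewer cells with a transcript and less transcript per cell cannot be told apart.

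**Figure D1:**
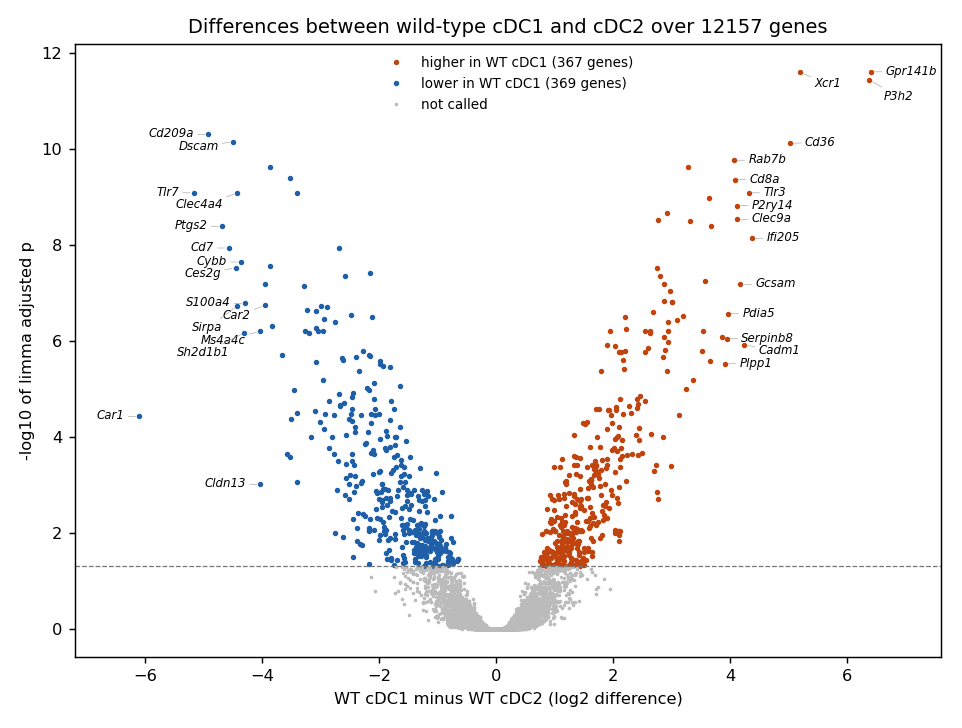
Each point is 1 of 12157 genes, with the log2 difference (WT cDC1 minus WT cDC2) on the horizontal axis and −log10 of the limma adjusted p on the vertical axis; the dashed line marks 0.05 and the 15 largest differences in each direction are named. The 367 higher genes end at Gpr141b (6.40) and the 369 lower genes at Car1 (−6.10).

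Among the genes higher in cDC1, 2 stood beyond all others. Gpr141b, an orphan G protein-coupled receptor, read 10.68, 10.36 and 10.77 in WT cDC1 and 4.44, 4.01 and 4.15 in WT cDC2 (log2, arrays 1 to 3). P3h2, an enzyme that hydroxylates prolines of collagen, read 10.87, 10.63 and 10.95 in WT cDC1 and 4.51, 4.16 and 4.64 in WT cDC2. Every WT cDC2 array lay below its array median for both, and every WT cDC1 array more than 5 log2 units above it. The differences were 6.40 ± 0.30 (SE; limma adjusted p = 2.48e-12) for Gpr141b and 6.38 ± 0.32 (3.65e-12) for P3h2.

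Among the further leading genes were a chemokine receptor, a scavenger receptor, a lectin and a nucleotide-sugar receptor. Xcr1, the chemokine receptor that marks this lineage, read 9.97, 9.55 and 9.58 in WT cDC1 and 4.25, 4.68 and 4.62 in WT cDC2. Cd36, a scavenger receptor for lipids and apoptotic cells, read 9.24, 9.26 and 9.58 in WT cDC1 and 3.98, 4.07 and 4.95 in WT cDC2. Clec9a, a lectin that binds actin exposed by dead cells, read 10.96, 10.71 and 11.24 in WT cDC1 and 6.51, 7.47 and 6.59 in WT cDC2. In all 3 the groups stood more than 3 log2 units apart, but Clec9a in WT cDC2 was above the array median whereas Xcr1 and Cd36 were below it. P2ry14, a receptor for UDP-sugars released by stressed cells, read 10.28, 10.54 and 10.76 in WT cDC1 and 5.43, 7.26 and 6.54 in WT cDC2, a 17.4-fold difference (log2 4.12 ± 0.30, adjusted p = 1.52e-09).

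Intracellular genes of the leading group were involved in traffic, protein folding and sensing. Rab7b, a small GTPase of late endosomes, differed by 4.06 ± 0.25, and Pdia5, a disulfide isomerase of the endoplasmic reticulum, by 3.96 ± 0.40. Pdia5 read 9.91, 9.48 and 10.23 in WT cDC1 and 5.84, 5.93 and 5.98 in WT cDC2. The WT cDC2 arrays lay within 0.14 of each other there, so the spread came from WT cDC1. Ifi205, an interferon-inducible protein of the PYHIN family, was 20.8-fold higher, the adhesion molecule Cadm1 18.8-fold, the germinal centre-associated adaptor Gcsam 18.1-fold, and the protease inhibitor Serpinb8 15.3-fold, and the lipid phosphatase Plpp1 differed by 3.91 ± 0.47. All passed with adjusted p of 2.98e-06 or less and in every fit that left out 1 array.

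The largest difference in the other direction was Car1, carbonic anhydrase 1, best known from red cell precursors. It read 7.56, 5.29 and 5.78 in WT cDC1 and 12.58, 11.43 and 12.92 in WT cDC2. The related Car2 read 4.55, 4.27 and 5.19 in WT cDC1 and 9.05, 8.01 and 8.81 in WT cDC2. These genes and the claudin Cldn13 (−4.03 ± 0.76) moved together with other erythroid genes, whose values follow below.

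Of the remaining leading genes lower in cDC1, most act in immune recognition and signalling. Tlr7, the receptor for single-stranded RNA, read 3.53, 2.78 and 3.95 in WT cDC1 and 8.51, 8.82 and 8.45 in WT cDC2. Ptgs2, the inducible cyclooxygenase that starts prostaglandin synthesis, read 6.82, 7.11 and 7.45 in WT cDC1 and 11.42, 12.04 and 11.97 in WT cDC2. Cybb, which encodes the electron-transferring chain of the NADPH oxidase of phagocytes, read 6.17, 4.42 and 4.99 in WT cDC1 and 9.66, 9.43 and 9.56 in WT cDC2. Tlr7 was at background in WT cDC1, Ptgs2 was above it, and Cybb was well above it on WT cDC1 array 1 alone. The differences were −5.17 ± 0.36 for Tlr7 (adjusted p = 8.22e-10), −4.68 ± 0.36 for Ptgs2 (4.10e-09) and −4.36 ± 0.37 for Cybb (2.27e-08). Others were the immunoglobulin-family protein Cd7 (−4.58 ± 0.38), the neuronal adhesion molecule Dscam (−4.50 ± 0.27), the carboxylesterase Ces2g (−4.45 ± 0.39), the adaptor Sh2d1b1 (−4.30 ± 0.46), the calcium-binding protein S100a4 (−4.30 ± 0.42) and the membrane protein Ms4a4c (−4.03 ± 0.43). Each kept its call in every fit that left out 1 array.

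In 2 pairs of related genes that lie close to each other the members went opposite ways; they were picked after values were seen and are not the only such neighbours. Gpr141, the next annotated gene to Gpr141b on chromosome 13, read 5.31, 4.14 and 5.93 in WT cDC1 and 7.45, 7.17 and 7.44 in WT cDC2 (−2.22 ± 0.35, limma adjusted p = 0.000137). In the lectin cluster of chromosome 6, Clec4b2 read 7.27, 8.72 and 8.53 in WT cDC1 and 4.15, 4.83 and 4.85 in WT cDC2 (3.56 ± 0.32, adjusted p = 5.76e-08). Clec4b1, separated from Clec4b2 by Clec4a2 alone among annotated genes, read 3.77, 3.96 and 4.56 in WT cDC1 and 6.28, 8.33 and 8.21 in WT cDC2 (−3.51 ± 0.51, adjusted p = 4.26e-05). Clec4b1 and Clec4b2 are close paralogues, and cross-hybridisation between their probes was not tested. Gpr141 was singled out after its values were seen. All 4 genes kept their calls in every fit that left out 1 array.

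The 250 bases upstream of the annotated starts of these 4 genes are shown because the genes of each pair lie near each other and differ in direction. Sequences are from RefSeq (GRCm38.p6), 5′ to 3′ on the strand of the gene, and capitals mark matches to the motifs searched.
Gpr141b (higher in WT cDC1, chr13:19732952-19733201, minus strand): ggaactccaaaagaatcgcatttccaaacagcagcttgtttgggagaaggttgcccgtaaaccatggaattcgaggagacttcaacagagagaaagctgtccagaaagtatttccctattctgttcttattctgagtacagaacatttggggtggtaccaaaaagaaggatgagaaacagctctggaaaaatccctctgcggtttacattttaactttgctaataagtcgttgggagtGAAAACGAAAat
Gpr141 (lower in WT cDC1, chr13:19824258-19824507, minus strand): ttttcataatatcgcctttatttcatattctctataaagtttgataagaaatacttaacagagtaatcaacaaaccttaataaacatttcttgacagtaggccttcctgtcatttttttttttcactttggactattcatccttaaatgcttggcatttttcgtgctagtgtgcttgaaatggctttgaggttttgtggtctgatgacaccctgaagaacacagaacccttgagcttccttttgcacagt
Clec4b2 (higher in WT cDC1, chr6:123172773-123173022, plus strand): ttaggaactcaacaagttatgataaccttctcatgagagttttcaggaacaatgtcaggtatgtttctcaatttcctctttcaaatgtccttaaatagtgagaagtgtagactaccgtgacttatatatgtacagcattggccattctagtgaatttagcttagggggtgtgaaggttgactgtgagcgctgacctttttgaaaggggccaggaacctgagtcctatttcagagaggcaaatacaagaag
Clec4b1 (lower in WT cDC1, chr6:123049712-123049961, plus strand): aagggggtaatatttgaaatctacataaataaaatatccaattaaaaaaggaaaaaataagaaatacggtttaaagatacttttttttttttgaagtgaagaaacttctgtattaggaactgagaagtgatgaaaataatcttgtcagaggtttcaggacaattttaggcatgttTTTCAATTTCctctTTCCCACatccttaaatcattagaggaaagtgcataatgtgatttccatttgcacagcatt
The motifs searched on both strands were an IRF pair (GAAA repeated after a gap of 2 bases), an ETS-IRF composite (GGAA, a gap of 2 bases, then GAAA), an AP-1 site (TGANTCA), an AP-1-IRF composite (GAAA directly before TGANTCA), an RBPJ site (GTGGGAA), an E-box (CAGGTG) and a GATA site (AGATAA), and a base could belong to more than 1 match. The IRF pair began 12 bases before the Gpr141b start and 75 before the Clec4b1 start, and Clec4b1 also held an RBPJ match 61 bases before its start. Over all genes with such a window, the IRF pair lay in 5.26% of 304 genes higher in WT cDC1, in 7.02% of 285 lower genes and in 3.26% of all 9702 genes tested. The AP-1 letters lay in 9.87%, 11.6% and 5.65% and the GATA letters in 11.2%, 11.2% and 7.41% of the same groups. The RBPJ letters lay in 5.92%, 5.96% and 6.05%, the E-box in 70 of 304, 64 of 285 and 1836 of 9702 genes, and the ETS-IRF letters in 3.29%, 3.16% and 2.50%. The AP-1-IRF composite was present in 7 of the 9702 genes, none of them called higher and 1 called lower. For each motif searched, the higher and lower genes were within 2 percentage points of each other, and a match is only a match of letters.

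The defining genes of each lineage separated the groups. Of 34 tested genes of the cDC1 identity list, 28 were higher in WT cDC1 (3.02% of all genes were) and none lower, with a median difference of 3.08 against 0.04 over all genes. Of 32 tested genes of the cDC2 identity list, 21 were lower (3.04% of all genes), 1 was higher and the median was −1.80. With the replicate number as a block 31 genes of the cDC1 list were higher and none lower, and 3 genes of the cDC2 list were higher and 24 lower. The exception was Clec12a, an inhibitory lectin that binds uric acid crystals, which read 9.56, 9.67 and 9.82 in WT cDC1 and 6.87, 7.66 and 8.11 in WT cDC2 (2.13 ± 0.24, adjusted p = 1.68e-06). All WT cDC1 arrays lay above all WT cDC2 arrays, against its place in the list. Cd8a, the surface marker from which splenic cDC1 were first known, read 9.37, 8.29 and 8.95 in WT cDC1 and 4.64, 5.05 and 4.70 in WT cDC2. Sirpa, the CD47-binding inhibitory receptor that marks cDC2, read 6.57, 6.19 and 6.04 in WT cDC1 and 11.17, 10.06 and 10.83 in WT cDC2. Clec4a4, the lectin recognised by the 33D1 antibody, read 2.97, 3.01 and 3.41 in WT cDC1 and 7.27, 7.35 and 8.04 in WT cDC2. Cd4, present on many splenic cDC2, read 5.58, 5.10 and 5.41 in WT cDC1 and 8.10, 7.02 and 7.88 in WT cDC2 (−2.31 ± 0.43, adjusted p = 0.000902).

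Members of the cDC1 list without a call were Batf3, Id2, Wdfy4, Havcr2, Cd24a and Sult1a1, with differences of 0.38 to 1.32, all above 0; with the block Havcr2 passed (adjusted p = 0.0249), and values for Id2 and Wdfy4 follow below. Those of the cDC2 list included Notch2 (0.02 ± 0.60), Klf4 (−0.55 ± 0.54), Esam (−0.72 ± 0.42), Il1b (−0.28), Ccr2 (0.43 ± 0.30), Rbpj (0.77 ± 0.30) and Cd9 (1.17 ± 0.41). With the block Esam (0.0319), Rbpj (0.00929) and Cd9 (0.00295) passed, Esam lower and the other two higher in WT cDC1. Genes shared by both lineages also had no call: the integrin Itgax (CD11c) differed by −0.44 ± 0.44, the growth factor receptor Flt3 by 0.46 ± 0.27 and the factor Zbtb46 by 0.10 ± 0.24. Several of these were named after their values were seen.

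**Figure D2:**
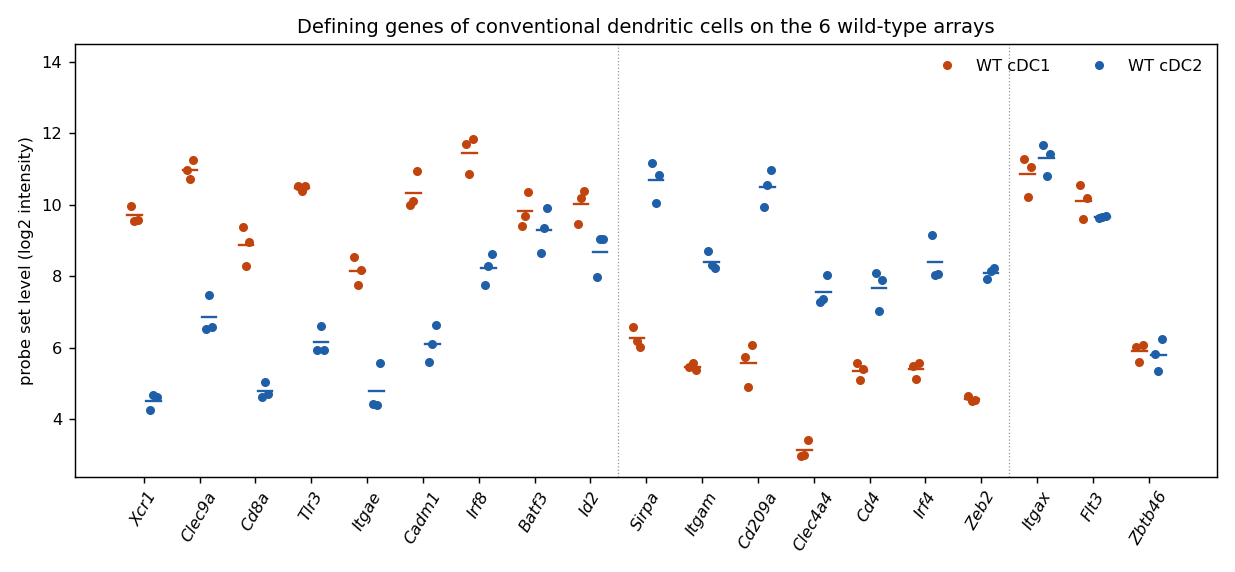
Log2 probe set level of 19 defining genes on the 3 WT cDC1 arrays (left of each pair) and the 3 WT cDC2 arrays (right), with the mean as a bar; dotted lines part the cDC1 genes, the cDC2 genes and the genes of both lineages. From Xcr1 to Irf8 all WT cDC1 points lie above all WT cDC2 points, Batf3 overlaps, and from Sirpa to Zeb2 all WT cDC1 points lie below.

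Among 46 transcription factors tested, 2 were higher (4.35%) and 8 lower (17.4%) in WT cDC1, beside 3.02% and 3.04% over all genes. Irf8 read 11.69, 10.86 and 11.83 in WT cDC1 and 7.76, 8.28 and 8.63 in WT cDC2 (3.24 ± 0.42, adjusted p = 1.02e-05). Irf4 read 5.50, 5.12 and 5.59 in WT cDC1 and 9.14, 8.03 and 8.06 in WT cDC2 (−3.01 ± 0.44, 4.85e-05). Zeb2, which restrains the cDC1 fate, read 4.66, 4.51 and 4.53 in WT cDC1 and 7.92, 8.14 and 8.23 in WT cDC2 (−3.53 ± 0.23, 3.95e-10). The groups did not overlap for any of these, and Zeb2 in WT cDC1 was at background. Also lower were Spib (−2.04 ± 0.45), Bhlhe40 (−1.79 ± 0.38), Tbx21 (−1.54), Tcf4 (−1.19), Runx3 (−0.89) and Prdm1 (−1.43 ± 0.36, adjusted p = 0.0154). Foxo1 was the other higher factor (0.85 ± 0.20, adjusted p = 0.00918). The Foxo1 call ended without WT cDC1 array 3 (adjusted p = 0.0687), and the Prdm1 call ended in 3 of 6 fits that left out 1 array (highest 0.110, without WT cDC1 array 1). Runx3 lost the call in 4 and Tcf4 in 2 such fits (highest 0.101, without WT cDC2 array 3, and 0.0990, without WT cDC1 array 1). Batf3 read 9.42, 9.68 and 10.37 in WT cDC1 and 8.64, 9.36 and 9.92 in WT cDC2, and the arrays overlapped (0.52 ± 0.47, adjusted p = 0.844; 0.0587 with the replicate block). Id2 read 9.46, 10.19 and 10.38 in WT cDC1 and 7.99, 9.05 and 9.05 in WT cDC2, without overlap. Its difference was 1.32 ± 0.60 with an adjusted p of 0.310, and 0.00192 with the replicate block. Bcl6 itself read 8.12, 7.12 and 7.02 in WT cDC1 and 7.83, 7.06 and 7.02 in WT cDC2 (0.12 ± 0.37, adjusted p = 1). With the block, 8 factors were higher and 13 lower.

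C-type lectins and endocytic receptors, which recognise sugars, dead cells and microbes, divided between the lineages. Of 32 tested, 5 were higher (15.6%) and 12 lower (37.5%) in WT cDC1, beside 3.02% and 3.04% over all genes. The median was −0.92, and with the block 5 were higher and 17 lower. Besides Clec9a and Clec4b2, the higher ones were Ly75 (DEC-205), Clec12a and Cd207 (langerin). Ly75 read 8.12, 7.36 and 7.89 in WT cDC1 and 5.88, 5.68 and 5.25 in WT cDC2 (2.19 ± 0.27, adjusted p = 3.84e-06). Cd209a, the mouse relative of DC-SIGN, read 5.76, 4.89 and 6.07 in WT cDC1 and 9.95, 10.56 and 10.96 in WT cDC2 (−4.92 ± 0.28, 5.01e-11). Every WT cDC2 array stood more than 3 log2 units above every WT cDC1 array for Cd209a. The neighbouring lectins Clec4a1, Clec4a2, Clec4a3, Clec4a4 and Clec4n (dectin-2) were all lower, by −2.01 to −4.42. Clec7a (dectin-1), a receptor for fungal glucans, read 8.46, 8.10 and 7.99 in WT cDC1 and 10.65, 10.95 and 10.33 in WT cDC2 (−2.46 ± 0.42, 0.000318). Cd207 lost the call in 4 of 6 fits that left out 1 array (highest 0.206, without WT cDC1 array 3). Klrd1 (CD94) differed by −3.87 ± 0.33 and Klra17 by −1.82 ± 0.37.

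Inhibitory and paired immunoglobulin-type receptors, which tune phagocytes through tyrosine-based motifs, were called lower in WT cDC1 more often than all genes (3.04%). The list was chosen with earlier results of these data known, so its share is no independent support. Of 34 tested, 15 were lower (44.1%) and 2 higher (5.88%, beside 3.02% over all genes) in WT cDC1. The median was −1.01, and with the block 21 were lower and 2 higher. Apart from Sirpa, the lower ones included Cd300ld (−3.07 ± 0.32), Cd72 (−2.99 ± 0.29), Cd300lf (−2.96 ± 0.32), Cd22 (−2.35 ± 0.29) and the collagen receptor Lair1 (−1.94 ± 0.23). Cd72 read 4.63, 4.75 and 5.02 in WT cDC1 and 7.58, 7.81 and 7.97 in WT cDC2. Treml4, known to bind late apoptotic cells, was higher, with 10.72, 9.16 and 10.79 in WT cDC1 and 8.08, 6.09 and 8.27 in WT cDC2 (2.75 ± 0.53, adjusted p = 0.00139). Array 2 was the lowest of its group in both, and the difference within the pairs was 2.64, 3.07 and 2.53. The other higher one was Cd300c (1.25 ± 0.33), whose call ended in 4 of 6 fits that left out 1 array (highest adjusted p 0.110, without WT cDC1 array 3). The common signalling chain Fcer1g, on which many of these receptors depend, read 7.87, 8.06 and 8.85 in WT cDC1 and 10.79, 11.15 and 11.51 in WT cDC2 (−2.89 ± 0.28, 1.93e-07), and of 11 Fc receptor genes it was the single lower one. The single higher one was Fcrla (2.76 ± 0.56). Each is 9.09% of the 11, beside 3.02% higher and 3.04% lower over all genes. With the block 2 Fc receptor genes were higher and 4 lower.

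Toll-like receptors, which sense microbial products, went both ways. Of 24 receptors and partners, 3 were higher (12.5%) and 5 lower (20.8%), beside 3.02% and 3.04% over all genes. The block gave 6 higher and 6 lower. Tlr3, the receptor for double-stranded RNA, read 10.52, 10.38 and 10.54 in WT cDC1 and 5.95, 6.61 and 5.94 in WT cDC2 (4.32 ± 0.30, adjusted p = 8.22e-10). Tlr12, which senses profilin of Toxoplasma, read 7.15, 6.29 and 6.92 in WT cDC1 and 4.64, 4.94 and 4.86 in WT cDC2 (1.97 ± 0.29). Tlr1, a partner of Tlr2 for bacterial lipopeptides, read 5.73, 5.77 and 6.32 in WT cDC1 and 8.66, 9.47 and 9.57 in WT cDC2 (−3.29 ± 0.30). The opposite differences of Tlr3 and Tlr7 were each beyond 4 log2 units, while Tlr9, the receptor for CpG DNA, had no call (−0.08 ± 0.45, named after its values were seen). Slc15a4, an endolysosomal transporter needed for signalling by Tlr7 and Tlr9, was lower (−1.47 ± 0.33, adjusted p = 0.00519). Hsp90b1, the chaperone of Toll-like receptors, was higher (1.14 ± 0.28, 0.0116), but not in 3 of 6 fits that left out 1 array (highest 0.106, without WT cDC2 array 2). The inhibitor Tnip3 was lower (−1.38 ± 0.39, 0.0346), with no call under the replicate block (0.0678) or in 5 of 6 fits that left out 1 array (highest 0.294, without WT cDC2 array 2).

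Of 24 cytosolic sensors and inflammasome genes, 1 was higher (4.17%) and 3 lower (12.5%), beside 3.02% and 3.04% over all genes. Ddx58, which encodes the RNA sensor RIG-I, read 4.82, 4.66 and 4.54 in WT cDC1 and 8.19, 7.79 and 6.92 in WT cDC2 (−2.96 ± 0.37, adjusted p = 6.65e-06), at background in every WT cDC1 array. Nod1, a sensor of bacterial peptidoglycan, differed by −1.93 ± 0.37. Sting1, the adaptor of cyclic dinucleotide sensing, differed by −1.15 ± 0.29 (adjusted p = 0.0142), without a call in 2 of 6 fits that left out 1 array (highest 0.0981, without WT cDC1 array 2). With the replicate block 4 were higher and 8 lower, beside 8.74% and 7.53% of all genes.

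Chemokine and migration receptors held 4 higher and 4 lower genes of 27 (14.8% each, beside 3.02% and 3.04% over all genes). The block gave 4 higher and 8 lower. The higher ones were Xcr1, P2ry14, Cxcr3 and Ccr9. Cxcr3, a receptor for interferon-induced chemokines, read 8.90, 9.44 and 9.71 in WT cDC1 and 5.97, 6.63 and 6.62 in WT cDC2 (2.94 ± 0.33, adjusted p = 1.04e-06). Ccr9, a gut-homing receptor, read 6.99, 7.05 and 7.17 in WT cDC1 and 4.23, 5.04 and 4.69 in WT cDC2 (2.42 ± 0.40). The lower ones were Gpr183, Ccrl2, Cx3cr1 and Ccr6. Gpr183, the oxysterol receptor that positions cDC2 at the bridging channels of the spleen, read 8.43, 8.79 and 8.60 in WT cDC1 and 10.46, 10.81 and 10.50 in WT cDC2 (−1.99 ± 0.23, 2.60e-06). The fractalkine receptor Cx3cr1 differed by −1.73 ± 0.37 (0.00368), and Ccr7, which guides mature dendritic cells to lymph nodes, had no call (−0.70 ± 0.31), but passed with the block (0.0487).

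**Figure D3:**
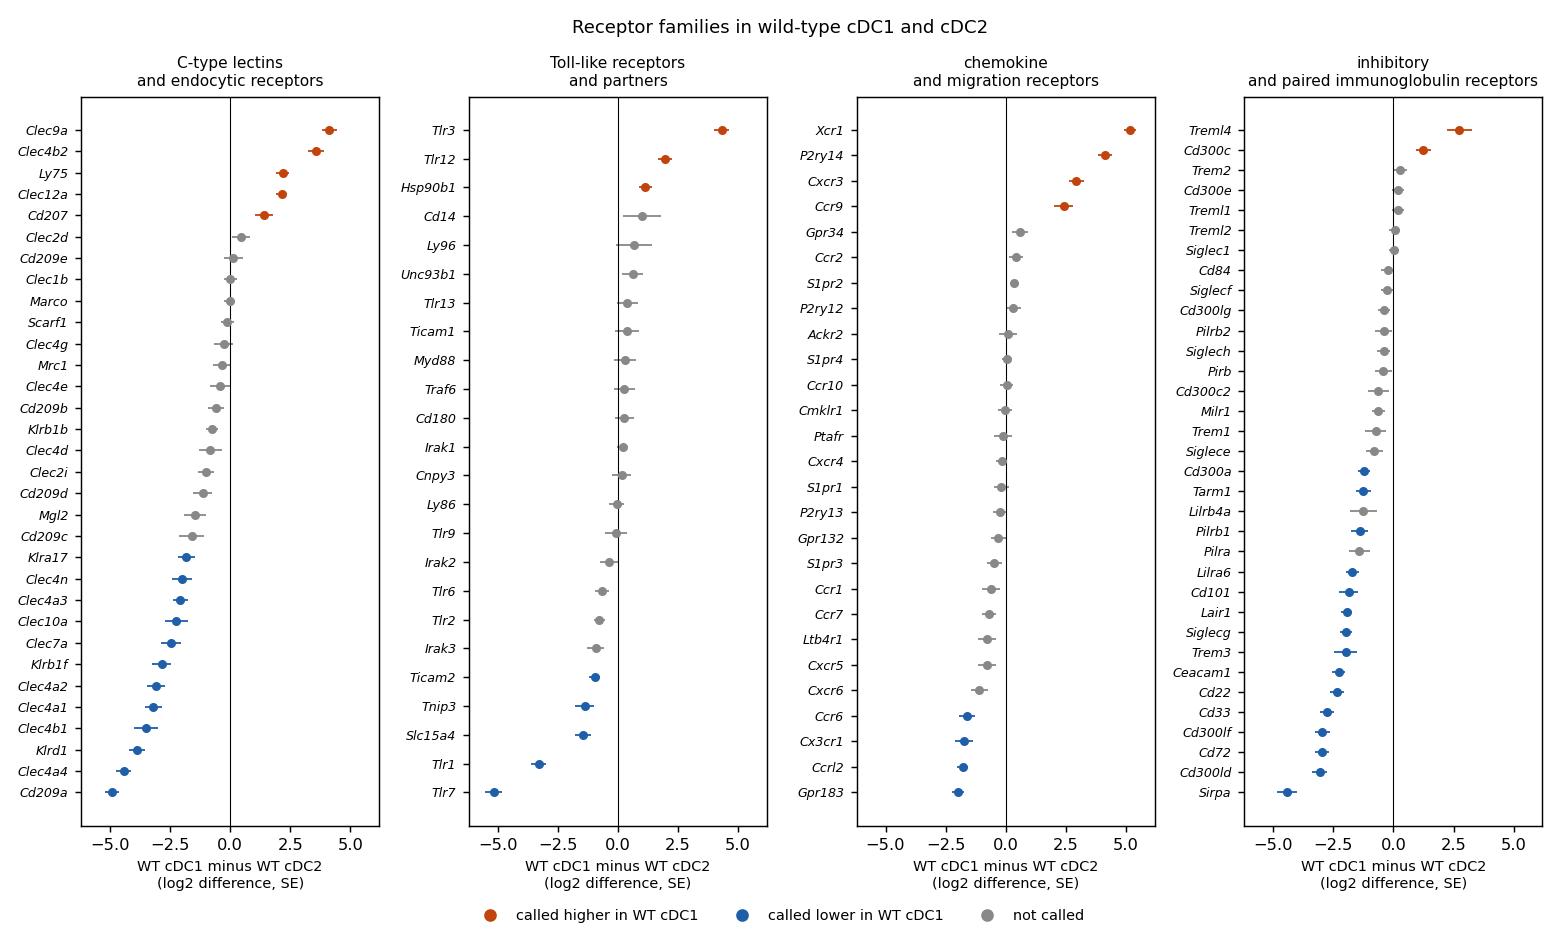
Differences (log2, WT cDC1 minus WT cDC2) of every tested gene in 4 receptor lists, with limma SE as bars; colour marks the call. Lectins run between Clec9a (4.12) and Cd209a (−4.92), Toll-like receptors between Tlr3 (4.32) and Tlr7 (−5.17), and the immunoglobulin-type receptors hold 15 lower and 2 higher genes.

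Integrins and adhesion molecules went both ways, with 7 higher (16.7%) and 4 lower (9.52%) of 42, beside 3.02% and 3.04% over all genes. Of the 42, 22 lay above 0 (6750 of 12157 over all genes), and the median was 0.09. Itgae (CD103), which binds E-cadherin, read 8.53, 7.77 and 8.19 in WT cDC1 and 4.42, 4.40 and 5.57 in WT cDC2 (3.37 ± 0.42, adjusted p = 6.65e-06). Itga8 was higher by 2.87 ± 0.26 and the tetraspanin Cd81 by 2.32 ± 0.38. Itgam (CD11b), the integrin chain used to sort cDC2, read 5.45, 5.57 and 5.37 in WT cDC1 and 8.70, 8.31 and 8.23 in WT cDC2 (−2.95 ± 0.30, 3.45e-07). The paralogues Cadm1 (4.24 ± 0.47) and Cadm3 (−2.10 ± 0.35) went opposite ways. With the block 14 were higher and 6 lower.

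Genes of MHC class I presentation and cross-presentation lay mostly above 0, although few passed singly. Of 28 tested, 4 were higher (14.3%) and 1 lower (3.57%), beside 3.02% and 3.04% over all genes. Of the 28, 23 lay above 0 (6750 of 12157 over all genes), with a median of 0.50. The replicate block gave 14 higher and 1 lower, at a background of 8.74% higher and 7.53% lower. The 4 were Pdia5, Pdia3 (1.11 ± 0.26), the lipid-presenting molecule Cd1d1 (1.77 ± 0.28) and the small GTPase Rab43 (1.34 ± 0.34). Cd1d1 read 7.74, 7.23 and 7.90 in WT cDC1 and 5.29, 6.41 and 5.86 in WT cDC2. Calls of Pdia3 ended in 2 and of Rab43 in 4 of 6 fits that left out 1 array (highest adjusted p 0.0675, without WT cDC2 array 2, and 0.115, without WT cDC1 array 1). The peptide transporter subunits Tap1 (0.91 ± 0.42) and Tap2 (1.06 ± 0.32) and the immunoproteasome subunits Psmb8 (0.93 ± 0.38) and Psmb9 (1.15 ± 0.36) had adjusted p of 0.309, 0.0520, 0.223 and 0.0617, and of 0.0134, 0.0463, 0.0109 and 0.00480 with the block. These and Wdfy4 (0.90 ± 0.28, 0.0582, and 0.00541 with the block), a gene needed for cross-presentation by cDC1, were singled out after their values were seen. The 1 lower gene was Cybb.

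Genes of MHC class II presentation differed less. Of 19 tested, none was higher and 2 were lower (10.5%), beside 3.02% and 3.04% over all genes, with a median of 0.02. The block gave 1 higher and 3 lower. H2-Ab1 read 13.11, 13.10 and 13.37 in WT cDC1 and 12.99, 13.05 and 13.24 in WT cDC2, and the invariant chain Cd74 read 12.78, 12.78 and 13.14 in WT cDC1 and 12.57, 12.70 and 13.03 in WT cDC2. Their differences, 0.10 ± 0.20 and 0.13 ± 0.24, were within the error, and both were named after their values were seen. H2-Eb2, a class II beta chain of restricted use, read 7.29, 6.52 and 7.01 in WT cDC1 and 8.97, 8.74 and 8.70 in WT cDC2 (−1.86 ± 0.29, adjusted p = 9.73e-05). The other lower gene, the endopeptidase Lgmn (−1.14 ± 0.30, 0.0210), had no call in 3 of 6 fits that left out 1 array (highest 0.158, without WT cDC1 array 2).

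Lysosomal proteins went both ways, 4 higher (13.3%) and 6 lower (20%) of 30, beside 3.02% and 3.04% over all genes. The block gave 8 higher and 8 lower. The hydrolase Naaa, which degrades N-acylethanolamines, read 12.37, 11.53 and 12.35 in WT cDC1 and 8.13, 8.62 and 8.47 in WT cDC2 (3.68 ± 0.29, adjusted p = 4.10e-09). Ppt1, a palmitoyl-protein thioesterase, read 12.14, 11.96 and 12.22 in WT cDC1 and 9.11, 9.35 and 9.10 in WT cDC2 (2.92 ± 0.22). The cysteine protease inhibitor Cst3 was 1.99-fold higher (0.99 ± 0.21, 0.00335). The aspartic protease Ctse read 7.02, 6.96 and 7.62 in WT cDC1 and 11.56, 9.65 and 10.63 in WT cDC2 (−3.41 ± 0.48, 3.21e-05). Its WT cDC2 arrays stood in the order of the erythroid gene Rhag (8.49, 5.45 and 6.93). The part of erythroid cells in the Ctse difference was not tested. The membrane proteins Tmem176b (−2.67 ± 0.37) and Tmem176a (−2.41 ± 0.36), neighbours of each other, were lower as well. Both directions were 2 or more log2 units in size for several members, so the list's median of −0.15 describes no single gene. Fuca1, a lysosomal fucosidase (1.93 ± 0.41), and Mpeg1, the pore-forming perforin-2 of endosomes (2.76 ± 0.21, adjusted p = 3.00e-09), were higher.

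Of 39 Rab and related vesicle traffic genes 6 were higher in WT cDC1 (15.4%, beside 3.02% over all genes). None was lower, and over all genes 3.04% were. Of the 39, 29 lay above 0 (6750 of 12157 over all genes), and the median was 0.38. The replicate block gave 17 higher and 4 lower, beside 8.74% and 7.53% of all genes. Snx22, a sorting nexin, read 9.19, 8.38 and 9.85 in WT cDC1 and 4.94, 5.20 and 5.72 in WT cDC2 (3.85 ± 0.42, adjusted p = 8.33e-07). Rab32, a GTPase of lysosome-related organelles, was higher by 2.03 ± 0.48 (0.00862), with no call in 2 of 6 fits that left out 1 array (highest 0.0705, without WT cDC1 array 3).

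Of 34 cytokine genes tested, 3 were higher (8.82%) and 4 lower (11.8%) in WT cDC1, beside 3.02% and 3.04% over all genes. The block gave 12 higher and 6 lower. Il12b, the p40 subunit of interleukin 12, read 10.59, 9.86 and 9.44 in WT cDC1 and 7.34, 6.84 and 6.14 in WT cDC2 (3.19 ± 0.32, adjusted p = 3.02e-07). Cxcl9, a ligand of Cxcr3, read 10.52, 10.74 and 11.43 in WT cDC1 and 6.27, 7.59 and 7.87 in WT cDC2 (3.65 ± 0.43, 2.66e-06). Il15, a survival factor for CD8 T cells and natural killer cells, read 6.69, 7.86 and 7.74 in WT cDC1 and 4.53, 5.44 and 5.95 in WT cDC2 (2.12 ± 0.51, 0.00930), and its call ended in 3 of 6 fits that left out 1 array (highest 0.0793, without WT cDC2 array 1). These were the 3 higher ones. The lower ones were the angiogenic factor Vegfa (−3.27 ± 0.35), the lymphotoxin subunit Ltb (−2.52 ± 0.51), the interleukin 1 antagonist Il1rn (−1.95 ± 0.40) and the chemokine Ccl3 (−1.58 ± 0.45). The Ccl3 call ended in 3 of 6 fits that left out 1 array (highest 0.266, without WT cDC1 array 1).

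Cytokine and growth factor receptors held 1 higher (2.17%) and 8 lower genes (17.4%) of 46, beside 3.02% and 3.04% over all genes. The block gave 5 higher and 10 lower. The decoy receptor Il1r2, which captures interleukin 1, read 8.61, 9.64 and 8.77 in WT cDC1 and 11.77, 12.05 and 10.94 in WT cDC2 (−2.58 ± 0.51, adjusted p = 0.00161). Il21r differed by −2.50 ± 0.45, the macrophage growth factor receptor Csf1r by −2.09 ± 0.28 and the granulocyte growth factor receptor Csf3r by −1.88 ± 0.28. Csf1r read 5.96, 5.60 and 5.77 in WT cDC1 and 7.61, 8.10 and 7.88 in WT cDC2. Csf3r in WT cDC2 read 8.17 on array 3, the array with high neutrophil transcripts, and 7.16 and 6.81 on the others, against 5.39, 5.67 and 5.45 in WT cDC1; neutrophils carry this receptor, and their part in the difference was not tested. Tnfrsf21, a death receptor, was the higher one (1.33 ± 0.23, 0.000387).

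Of 29 costimulation and checkpoint genes, 1 was higher (3.45%) and 4 lower (13.8%), beside 3.02% and 3.04% over all genes. The block gave 4 higher and 5 lower. The higher one was Btla, an inhibitory receptor, with 9.48, 9.44 and 9.90 in WT cDC1 and 6.75, 7.39 and 7.46 in WT cDC2 (2.41 ± 0.32, adjusted p = 1.64e-05). The lower ones were galectin 9 (Lgals9, −1.95 ± 0.37), PD-L1 (Cd274, −1.37 ± 0.33), PD-L2 (Pdcd1lg2, −1.22 ± 0.31) and LIGHT (Tnfsf14, −1.20 ± 0.29), the last of which costimulates. Cd274 read 7.81, 7.06 and 6.80 in WT cDC1 and 9.14, 8.47 and 8.18 in WT cDC2. Leaving out 1 array ended the calls of Cd274 in 3, of Pdcd1lg2 in 3 and of Tnfsf14 in 2 of 6 fits (highest adjusted p 0.0953, without WT cDC2 array 1, 0.0933, without WT cDC1 array 2, and 0.0791, without WT cDC2 array 3). The costimulators Cd80 (−0.55 ± 0.32), Cd86 (0.38 ± 0.27) and Cd40 (0.08 ± 0.36), named after their values were seen, had no call.

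Of 44 interferon-stimulated genes 8 were lower (18.2%) and 3 higher (6.82%) in WT cDC1, beside 3.04% and 3.02% over all genes. The median was −0.39, and with the replicate block 18 were lower and 6 higher. Rtp4, a chaperone of receptors induced by interferon, read 5.54, 5.74 and 5.15 in WT cDC1 and 9.39, 9.09 and 8.96 in WT cDC2 (−3.67 ± 0.43, adjusted p = 2.00e-06). The antiviral oligoadenylate synthetase family was represented by Oas2 (−2.21 ± 0.29) and Oasl2 (−2.17 ± 0.25), and Ifit1, which binds foreign RNA, differed by −2.18 ± 0.51 (0.00874). Oas2 read 5.13, 5.34 and 4.99 in WT cDC1 and 7.91, 7.21 and 6.96 in WT cDC2. The 3 higher genes, Parp12 (1.39 ± 0.35), Mx1 (1.26 ± 0.32) and Trim30a (1.05 ± 0.29), each lost the call in 4 of 6 fits that left out 1 array. Their highest adjusted p were 0.114 (without WT cDC2 array 3), 0.125 (without WT cDC1 array 3) and 0.131 (without WT cDC1 array 1).

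In glucose metabolism, the transporters that passed the test were lower in WT cDC1 and the glycolytic enzymes that passed were higher. The transporters Slc2a3 (−3.17 ± 0.49), Slc2a6 (−1.82 ± 0.37) and Slc2a1 (−1.14 ± 0.30) were lower. The enzymes Hk3 (2.17 ± 0.26), Pfkp (1.62 ± 0.30), Pgam1 (1.06 ± 0.30) and Pgk1 (1.05 ± 0.30) were higher. Of 22 genes tested these were 18.2% higher and 13.6% lower, beside 3.02% and 3.04% over all genes. The block gave 7 higher and 4 lower. Slc2a3 read 6.59, 6.54 and 6.93 in WT cDC1 and 9.84, 9.31 and 10.42 in WT cDC2. Hk3, a hexokinase of myeloid cells, read 7.48, 6.71 and 8.06 in WT cDC1 and 5.01, 5.21 and 5.52 in WT cDC2. Slc2a1 lost the call in 3, Pgam1 in 5 and Pgk1 in all 6 fits that left out 1 array (highest adjusted p 0.149, without WT cDC1 array 2, 0.241, without WT cDC1 array 1, and 0.181, without WT cDC2 array 1). Of 38 oxidative phosphorylation genes limma called 0 (1 with the replicate block), and their differences ran from −0.33 to 0.55. Among lipid genes the binding protein Fabp5 (−2.44 ± 0.42), the transfer protein Pltp (−2.29 ± 0.42) and the uptake receptor Lrp1 (−1.70 ± 0.28) were lower, while thromboxane synthase Tbxas1 was higher (2.09 ± 0.32) where Ptgs2, the enzyme before it, was lower.

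Cell cycle genes were nearly all below 0, and most had no call. Of 38 tested, 3 were lower (7.89%, beside 3.04% over all genes), none was higher and 3 lay above 0. The median was −0.48, and with the replicate block 9 were lower. The median within the pairs was −1.04 in pair 1, −0.28 in pair 2 and −0.19 in pair 3. The called ones were the G1 cyclins Ccnd2 (−1.82 ± 0.29), Ccne1 (−1.62 ± 0.42) and Ccnd1 (−1.21 ± 0.33). Ccnd2 read 7.93, 7.36 and 8.41 in WT cDC1 and 9.72, 9.42 and 10.01 in WT cDC2 (adjusted p = 0.000160). Ccne1 lost the call in 4 and Ccnd1 in 3 of 6 fits that left out 1 array (highest adjusted p 0.182 and 0.171, both without WT cDC2 array 1). Ccne1 read 6.28, 6.71 and 6.58 in WT cDC1 and 9.15, 7.19 and 8.08 in WT cDC2, and Ccnd1 read 9.78, 9.23 and 9.46 in WT cDC1 and 11.12, 10.49 and 10.49 in WT cDC2. For Ccne1 the WT cDC2 arrays stood in the order of the erythroid gene Rhag (8.49, 5.45 and 6.93), and the part of erythroid cells in the cell cycle differences was not tested.

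Notch signalling, on which splenic cDC2 depend, gave 1 higher and 1 lower gene of 30, that is 3.33% in each direction beside 3.02% and 3.04% over all genes, and with the block 4 higher and 5 lower. Dtx1, a Notch target, read 6.13, 5.66 and 6.03 in WT cDC1 and 8.28, 7.76 and 8.24 in WT cDC2 (−2.15 ± 0.19, adjusted p = 3.94e-08). Notch4 was higher (1.81 ± 0.44, 0.0108), with no call in 2 of 6 fits that left out 1 array (highest 0.0946, without WT cDC1 array 3). The median of the list was 0.09.

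Other lists gave small counts of calls, beside shares of 3.02% higher and 3.04% lower over all genes. Of 28 efferocytosis and lipid uptake genes 2 were higher (7.14%) and 4 lower (14.3%). Of 19 leukotriene and prostanoid genes 2 were higher and 2 lower (10.5% each). Of 28 S100, annexin and actin-capping genes 3 were higher (10.7%) and 1 lower (3.57%). Of 20 T-lineage surface molecules 1 was higher (5%) and 2 lower (10%). With the block these were 7 and 7, 3 and 6, 5 and 6, and 5 and 5. The T-lineage calls without the block were Cd8a, Cd4 and Cd7, described above. Of 14 complement and coagulation genes 2 were higher (14.3%), the serpins Serpinb6b and Serpinb9, and none lower. Of 16 BCL2 family genes 1 was higher (6.25%), Bcl2l14 (1.65 ± 0.42). Of 21 cholesterol synthesis genes 1 was higher (4.76%), Insig2 (1.96 ± 0.38), which holds back the sterol-sensing factors. With the block these lists had 2 higher and 1 lower (complement), 2 and 0 (BCL2) and 3 and 1 (cholesterol). Of 30 immediate-early and heat shock genes limma called 0, with differences of −1.25 to 0.79 (2 higher and 4 lower with the block), and of 4 sex-linked genes it called 0. Bcl2l14 lost its call in 3 of 6 fits that left out 1 array (highest adjusted p 0.125, without WT cDC1 array 3).

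**Figure D4:**
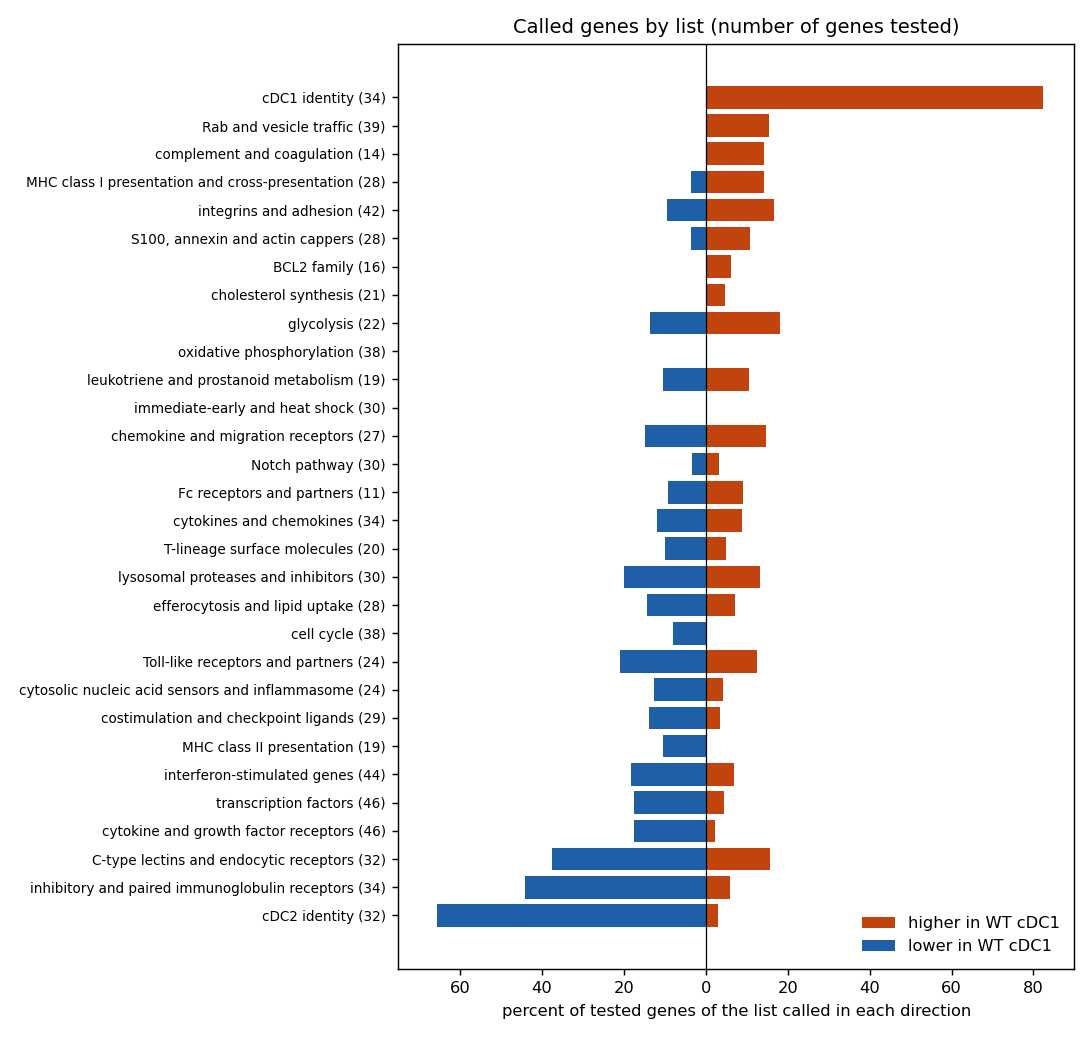
Percent of the tested genes of each list called higher (to the right) or lower (to the left) in WT cDC1, with the number of genes tested in brackets; marker lists of other cells and the sex-linked genes are not plotted. Over all genes 3.02% were higher and 3.04% lower. The lists were chosen with earlier results of these data known, and the 2 identity lists hold the defining genes. Among the other lists plotted, the inhibitory immunoglobulin-type receptors (44.1%) and the lectins (37.5%) have the longest bars to the left.

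Transcripts of other cells were present unevenly. Counts of called markers stand beside 3.02% higher and 3.04% lower over all genes. The summed level of 7 erythroid and platelet markers was 223 to 340 intensity units on the WT cDC1 arrays and 3164 to 8381 on the WT cDC2 arrays. Car1 carried the WT cDC2 sums, with log2 levels of 12.58, 11.43 and 12.92. Of the 5 markers tested, Car1 and Car2 were lower in WT cDC1, and Alas2, Gp9 and Itga2b had no call. A longer erythroid list, drawn up after these values were seen, had 30 genes tested, of which 22 were lower in WT cDC1, none was higher and none lay above 0 (median −1.88). The blood group protein Rhag read 3.43, 3.23 and 4.01 in WT cDC1 and 8.49, 5.45 and 6.93 in WT cDC2, and the erythroid factor Gfi1b read 5.84, 5.69 and 5.92 in WT cDC1 and 9.03, 7.40 and 8.45 in WT cDC2. Array 1 was the highest and array 2 the lowest WT cDC2 array for both; over the 30 genes the highest WT cDC2 array was array 1 for 23 and array 3 for 7. Without this list 347 genes remained called lower. In the cKO arrays 25 of the 30 were lower in cDC1. The red cell lysis of the preparation would remove mature red cells, and the part of erythroid cells in these differences was not tested. The red pulp macrophage genes Adgre1 (−3.23 ± 0.32) and Slc40a1 (−0.99 ± 0.26) were 2 lower genes of 11 in their list. None was called higher, 5 lay above 0 and the median was −0.002. With the replicate block 2 were lower and 2 higher, Timd4 (0.77, limma adjusted p = 0.0289) and Vcam1 (0.68, 0.0346). The summed level of the list was 518 to 722 in WT cDC1 and 593 to 1199 in WT cDC2. The mean exceeded the mean array median for 7 of the 11 in WT cDC1 and 6 in WT cDC2. The macrophage factor Spic read 6.11, 5.17 and 5.92 in WT cDC1 and 5.86, 5.15 and 6.95 in WT cDC2, and Cd163 was at background in both (4.28 to 4.54 in WT cDC1 and 4.32 to 4.52 in WT cDC2). The part of macrophages in these differences was not tested. Slc40a1 lost its call in 3 of 6 fits that left out 1 array (highest adjusted p 0.162, without WT cDC2 array 1).

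The neutrophil genes S100a8 and Ngp, with 7.20 and 8.32 on WT cDC1 array 1 and 8.03 and 9.64 on WT cDC2 array 3, lay at 3.72 to 4.58 on the other 4 arrays. The monocyte and neutrophil list summed to 803 to 1579 in WT cDC1 and 374 to 2640 in WT cDC2, and none of its 9 genes was called. B cell markers summed to 387 to 744 in WT cDC1 and 672 to 952 in WT cDC2, and Cd22 and Spib were the 2 lower ones of 11. The mean exceeded the mean array median for 4 of the 11 in WT cDC1 and 5 in WT cDC2: Ms4a1 (CD20) read 7.17, 6.93 and 8.45 in WT cDC1 and 5.76, 5.30 and 6.40 in WT cDC2, without a call, and Cd79a lay at background in both. T cell markers summed to 344 to 634 in WT cDC1 and 585 to 805 in WT cDC2, with Il7r (−1.26 ± 0.26) lower of 8 tested. NK cell markers summed to 245 to 439 in WT cDC1 and 402 to 566 in WT cDC2, with Klri2 (−2.61 ± 0.31) lower of 6 tested, while Ncr1 lay at 3.90 to 5.20 in WT cDC1 and 4.35 to 4.86 in WT cDC2. Plasma cell markers summed to 733 to 1212 in WT cDC1 and 663 to 1010 in WT cDC2. Markers of pDC summed to 5803 to 7138 in WT cDC1 and 3258 to 3923 in WT cDC2, with Mpeg1 and Ccr9 higher and Zeb2, Spib, Lair1, Klra17 and Tcf4 lower of 17. Mpeg1, which read 12.01, 11.85 and 12.06 in WT cDC1 and 9.28, 9.49 and 8.88 in WT cDC2, carried this sum, and the other 16 genes summed to 2066 to 2857 in WT cDC1 and 2636 to 3454 in WT cDC2. The median difference of the list was −0.51, with 5 of 17 above 0, and Siglech, a defining marker, had no call (−0.41).

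The WT pDC arrays gave a reference level for the called genes. For 81 of the 367 higher genes (22.1%) the WT pDC mean was nearer to WT cDC1 than to WT cDC2, and for 250 of the 369 lower genes (67.8%) it was nearer to WT cDC1. The lower genes included 22 of the longer erythroid list, such as Rhag, with means of 3.56 in WT cDC1, 6.96 in WT cDC2 and 3.99 in WT pDC. The genes named next all had a WT pDC mean nearer to the group of higher level, unlike most called genes. Irf8, Clec9a, P2ry14, Mpeg1, Clec12a and Cxcr3 were among the genes high in both WT cDC1 and WT pDC (WT pDC means of 11.58, 9.74, 10.46, 11.90, 10.11 and 10.03). Tlr7, Sirpa, Cd209a, Cybb, Zeb2, Irf4 and Cd7 were low in WT cDC1 and high in WT pDC (10.04, 10.05, 10.84, 10.95, 9.12, 8.48 and 11.84).

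The same comparison in cKO arrays, which share no array with the WT comparison, asked which of these differences were also present in the arrays labelled cKO. The targeted gene Bcl6 read 8.74, 8.06, 8.46 and 8.29 in cKO cDC1, against 8.12, 7.12 and 7.02 in WT cDC1, and 7.51, 7.97 and 8.62 as lowest, median and highest of 5 cKO cDC2 arrays, against 7.83, 7.06 and 7.02 in WT cDC2. Its mean was thus not below that of WT in either population labelled cKO, and the difference between genotypes in its level was not tested. Whether its 1 probe set reads the deleted part is not stated in the labels, so these values do not check the labels. The cKO cDC1 arrays had 486 genes above and 602 below the cKO cDC2 arrays at the same threshold (4% and 4.95%, 8.95% in all). Of the 367 genes higher in WT cDC1, 287 (78.2%) were called higher in cKO and 362 had the same sign. Of the 369 lower ones, 266 (72.1%) were called lower and 351 had the same sign, and 1 gene of each direction was called the opposite way. The difference between genotypes itself, tested as cKO minus WT of the cDC1 minus cDC2 difference, passed for 34 of 12157 genes (0.28%), 21 above 0 (0.173%) and 13 below (0.107%). Of these, 18 were lower in WT cDC1, and all 18 had a cKO difference nearer 0. Another 6 were higher, and 5 of them had a cKO difference nearer 0. The rest had no WT call, and each, such as Ccl24, Gfra2 and Fn1, had a cKO difference farther from 0. Splitting by the WT call uses the WT difference that enters this test, so the split itself favours these outcomes. Without WT cDC1 array 2, or without WT cDC2 array 2, 22 genes passed.

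Xcr1 kept the same size (5.21 ± 0.21 in cKO and 5.19 ± 0.25 in WT), as did Tlr3 (4.18 in cKO and 4.32 in WT), Irf4 (−3.06 and −3.01) and Ptgs2 (−4.60 and −4.68). Several genes of higher level in WT cDC2 did not. Cybb read 9.77, 9.24, 9.45 and 9.13 in cKO cDC1, against 6.17, 4.42 and 4.99 in WT cDC1. It read 9.95, 10.14 and 10.91 as lowest, median and highest of 5 cKO cDC2 arrays, against 9.66, 9.43 and 9.56 in WT cDC2. The cDC1 minus cDC2 difference was −0.91 ± 0.30 in cKO and −4.36 ± 0.37 in WT, and the difference between them was 3.45 ± 0.48 (limma adjusted p = 0.000482). Tgm2, transglutaminase 2, differed by −0.71 ± 0.20 in cKO and −3.87 ± 0.25 in WT (5.84e-06). For Tgm2 the cKO cDC1 mean of 7.62 was above the WT cDC1 mean of 6.05, and the cKO cDC2 mean of 8.33 was below the WT cDC2 mean of 9.92. Cd300lf (−0.05 in cKO and −2.96 in WT), Cd22 (0.54 and −2.35), Lair1 (0.34 and −1.94) and Pltp (0.30 and −2.29) had no call in cKO. Clec4a4 differed by −1.91 ± 0.26 in cKO and −4.42 ± 0.31 in WT, with cKO cDC2 arrays at 3.85 to 5.61 against 7.27 to 8.04 in WT cDC2. Il12b had a smaller positive difference, 1.18 ± 0.27 in cKO and 3.19 ± 0.32 in WT, with means of 9.94 in cKO cDC1 and 8.76 in cKO cDC2, against 9.96 in WT cDC1 and 6.77 in WT cDC2. Ccl24, Gfra2 and Fn1 had no call in WT (0.02, −0.64 and −1.01; with the replicate block Gfra2 and Fn1 passed, 0.0279 and 0.0132) and differences of 6.06, −4.28 and −4.28 in cKO.

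**Figure D5:**
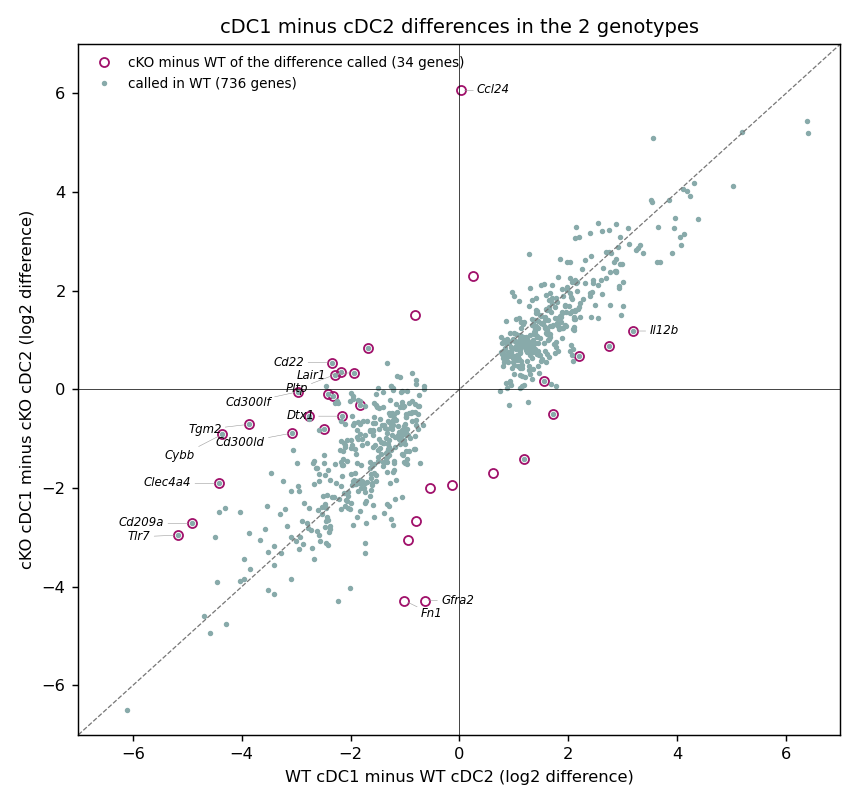
The cDC1 minus cDC2 difference (log2) in WT arrays (horizontal) and cKO arrays (vertical) for the 736 genes called in WT (points), with rings on the 34 genes for which the 2 differences differ, of which 18 are lower and 6 higher in WT cDC1 and the rest have no WT call, and a dashed line of equality. Most called genes lie near the line, while Cybb, Tgm2 and Cd300lf lie near 0 in cKO and Ccl24, Gfra2 and Fn1 lie far from 0 in cKO alone.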

How the data were processed

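Gene-level intensity values of 23 Mouse Gene 1.0 ST arrays were deposited by the authors, made with Affymetrix Expression Console and RMA per the submitters' processing notes (versions and scan dates not given in the sources used here). The deposited intensities lie on a linear scale (3.785 to 13980.744), so log2 was taken. Of 28853 probe sets, 21789 named 1 gene, and 21698 of these matched RefSeq (GRCm38.p6) by Entrez identifier. Probe sets exceeding the median of their array on 3 or more arrays were kept, and a gene was represented by its probe set of highest average level, leaving 12157 genes. With limma 3.58.1 in R 4.3.3, the 23 arrays were modelled together by a mean per group (17 residual degrees of freedom), with Benjamini-Hochberg adjustment over all genes and two-sided tests; a gene was called at an adjusted p below 0.05. Errors are limma SE. The number of arrays limits the precision.

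Replicate numbers were taken as pairs because same-numbered WT arrays deviated together (r above 0.1 in all 3 pairs), and counts of a list (other than markers of other cells) from a fit with the number as a block are given beside it where they differ, as are block p-values of genes named without a call that the block gives one. The block fit of the WT comparison used the 6 WT cDC1 and WT cDC2 arrays alone, with 2 residual degrees of freedom against 17 in the main fit. In cKO arrays the numbers did not all pair (r of −0.297 to 0.596). Lists and members were chosen with earlier results of these data known. Named genes are the 15 largest called differences in each direction with no overlap between groups, up to 4 called members per direction of each of 39 lists (or 2 members where none was called), the 8 called genes of highest level per direction, the 5 largest called differences between genotypes and 14 fixed genes. Other list members given with values were picked after values were seen. Lists of endoplasmic reticulum folding, erythroid and serpin genes were added after values were seen. The fit was tested on simulated data. Promoter letters were counted in Python 3.11.15 with pandas 2.3.3, and plots were drawn with matplotlib 3.10.9.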

Additional observations from a re-analysis of the deposited data

Results flagged for a closer look

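For 15 named genes the cDC1 minus cDC2 difference itself differed between genotypes (cKO minus WT, log2, limma adjusted p below 0.05). The value was 6.04 for the chemokine Ccl24, which was at background in both WT groups. It was 3.45 for Cybb, 3.16 for Tgm2, 2.92 for Cd300lf, 2.89 for Cd22, 2.59 for Pltp and 2.52 for Clec4a4. It was 2.28 for Lair1, 2.22 for Tlr7, 2.20 for Cd209a, 2.19 for Cd300ld and 1.61 for Dtx1. It was −3.64 for Gfra2, −3.27 for Fn1 and −2.01 for Il12b.

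In groups of 4 or 5 arrays, 2 of the 30 sets of values examined held 1 array far from the rest, and chance alone gives about 1 in 20. Cd22 read 8.68 on 1 cKO cDC2 array, against 7.60 to 7.88 on the other 4. Clec4a4 read 2.75 on 1 cKO cDC1 array, against 2.98 to 2.99 on the other 3, all at background.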

How the results depend on the processing

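The count of called genes moved most with the pairing. For WT cDC1 minus WT cDC2 it was 1977 with the replicate block (1062 higher, 915 lower) and 1889 with a term for 3 sets of arrays told apart by array median (1019 and 870), against 736; the set equals the replicate number among these 6 arrays, and was drawn from the data, so its smaller errors are no independent support. With the set as a term the cKO count was 2454 (1149 higher, 1305 lower) and the count of differences between genotypes 148 (77 above and 71 below 0). Leaving out 1 array gave 575 to 651 calls, 239 to 354 higher and 262 to 370 lower, and 22 to 37 differences between genotypes (15 to 23 above and 7 to 17 below 0). Chosen after seeing the data, leaving out both arrays numbered 1 gave 432 calls (217 and 215), and leaving out the 2 arrays with high neutrophil transcripts 472 (218 lower). Counts with quantile normalization, median centring, other filters, averaged probe sets, a trended prior or only the 6 arrays were within 1.5 times. The fit of only the 6 arrays called 605 genes (294 higher, 311 lower) and kept 552 of the 736 calls. In it 19 of the 152 called named genes had no call. Of 152 called named genes, 116 kept the call in every fit that left out 1 array and none changed sign under any alternative. The replicate block ended the call of Tnip3 and gave one to Id2, Nfkbia, Nfkbiz, Fn1, Gfra2, Cycs and Lyz2; it changed no other call of a gene named by the rule.

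Genes without a call changed sign. Over the fits without 1 array, the difference lay between −0.233 and 0.38 for Bcl6, −0.105 and 0.162 for Ccl24, −1.086 and 1.271 for Eif2s3y, −0.367 and 0.419 for Notch2, −2.512 and 1.963 for Xist and −0.128 and 0.319 for Zbtb46. Notch2 was −0.064 with quantile normalization, −0.05 without the arrays numbered 1 and −0.44 without the 2 high-neutrophil arrays, where Bcl6 was −0.37.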

Other observations

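Protein folding genes of the endoplasmic reticulum held 14 higher and no lower gene of 35 in WT cDC1. Their list was drawn up after values were seen, and over all genes 3.02% were higher and 3.04% lower. The replicate block gave 22 higher and none lower, beside 8.74% and 7.53% of all genes. Of the 35, 32 lay above 0 (6750 of 12157 over all genes), and the median was 0.71. Beside Pdia5, they included Mlec, a lectin of the folding machinery, with 9.78, 10.12 and 10.64 in WT cDC1 and 7.93, 8.55 and 8.50 in WT cDC2 (1.85 ± 0.39, limma adjusted p = 0.00277). Sdf2l1, a cofactor of the chaperone BiP, read 9.48, 9.19 and 9.89 in WT cDC1 and 7.54, 7.91 and 8.11 in WT cDC2 (1.67 ± 0.30, 0.000634). The stress-response factor Xbp1 (0.45 ± 0.45) and BiP itself (Hspa5, 0.58 ± 0.30) had no call, and Hspa5 passed with the block (0.0325). In cKO arrays 13 of the 35 were higher in cDC1 and none lower.

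Serpins, inhibitors of proteases, held 6 higher genes in WT cDC1 and none lower of 10 tested (list drawn up after values were seen). Over all genes 3.02% were higher and 3.04% lower. Serpinb6b read 9.29, 8.99 and 9.46 in WT cDC1 and 7.14, 7.32 and 7.33 in WT cDC2 (1.98 ± 0.32, adjusted p = 0.000183). Serpinb9, an inhibitor of granzyme B, read 7.86, 7.56 and 7.73 in WT cDC1 and 6.60, 5.70 and 6.82 in WT cDC2 (1.34 ± 0.29, 0.00359). Serpinb2 differed by 2.13 ± 0.34 and Serpinb10 by 1.31 ± 0.32. Serpinb10 lost its call in 2 of 6 fits that left out 1 array (highest adjusted p 0.0981, without WT cDC1 array 3). In cKO arrays 6 were higher in cDC1.

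Chromosome 6, which carries the lectin and natural killer receptor clusters, held 31 higher and 37 lower genes of 603 tested. Chromosome 13 held 24 higher and 14 lower of 426, and over all genes 3.02% were higher and 3.04% lower. The part of the clusters in the chromosome 6 counts was not tested. Among probe sets with no gene name in the table used here, 11 were higher and 16 lower of 2338 tested, and these were not analysed further.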
